A study of Mus musculus with 16 samples.

Results

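Of 37108 merged open regions in 16 ATAC-seq libraries of mouse haematopoietic stem cells (HSCs), 3113 were constitutive gene-end regions: short stretches of open DNA at gene ends that every library shared. Overlapping peaks of the libraries, sharing 1 bp or more, were joined into merged regions on chromosomes 1 to 19 and X. The members were then chosen by the deposited peak calls, on 3 measured values: a peak in all 16 libraries, a median summit within 1 kb of an end of a protein-coding gene, and no peak of 2500 bp or wider in any library. Presence in every library, nearness to a gene end and the upper width limit are therefore no findings. In all, 5262 regions were called in all 16 libraries, and 702 of these held a peak of 2500 bp or wider. The 1447 regions without such a peak whose summit lay farther than 1 kb from any gene end are called distal here. Of the 5262 regions, 3525 lay within 1 kb of a gene end before the width limit. The labels name the cells HSCs sorted by flow cytometry. ATAC-seq marks open DNA by the insertions of a transposase, and the Omni-ATAC protocol used here adds detergents that reduce mitochondrial reads.

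The study compared old with young HSCs and HSCs after transplantation (post) with HSCs before it (pre), with 4 libraries of 10000 sorted HSCs in each of 4 groups. All donors were male B6 mice. An old post library held HSCs from the pooled marrow of 5 lethally irradiated young BJ mice, 3 months after they had received 1000 HSCs of 1 old donor aged 24 months together with 300000 helper marrow cells of BJ mice depleted of Sca-1-positive cells. An old pre library held HSCs taken straight from that old donor. A young post library was made in the same way as an old post library, with HSCs from a pool of 3 to 4 donors aged 8 to 12 weeks, and a young pre library held HSCs of that pool. By the design text, libraries of 1 number and age share their donors before and after transplantation. No label states a donor marker in the sort of post HSCs, and cells of the irradiated recipients or the helper marrow may be among them. Transposition was spread over 6 days. Among post libraries, old 1 and 2 shared a day of their own, old 3 was processed with young 1 and 2, and old 4 with young 3 and 4. Among pre libraries, old 1 and 2 again had a day to themselves, old 3 and 4 went with young 1 to 3, and young 4 stood alone. No day held both stages, so stage and transposition day cannot be told apart.

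A gene start that is always open in a cell type usually belongs to a gene that most cells use, such as those for ribosomes, splicing and protein turnover. Such promoters are typically CpG islands, in which a stretch of DNA free of nucleosomes lies just before the start. Factors known to keep it free include NF-Y, which binds the CCAAT box, SP and KLF proteins, which bind the GC box, and ETS proteins, NRF1 and YY1. Genes that define a cell type are more often controlled from distal enhancers, which differ more between cell types.

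The following promoters, each from 250 bases before to 50 bases after the start of its gene, are RefSeq sequences of GRCm38.p6, written 5′ to 3′ on the strand of the gene. The first 3 are shown for the CCAAT box, the YY1 motif and the ETS core in turn: each had the highest median rank of peak area among member promoters that held its motif once and were not already chosen for another motif. The capitals mark that motif only, and the YY1 letters in Hdlbp are in lower case. Hdlbp lies at chr1:93478328-93478627 on the minus strand and holds the CCAAT box as its reverse complement, Fiz1 at chr7:5014679-5014978 on the minus strand with the YY1 motif, and Asxl2 at chr12:3426607-3426906 on the plus strand with the ETS core. H2ac15, at chr13:21753863-21754162 on the minus strand, is shown because its region had the smallest p of those in the promoter table that were higher after transplantation, and the capitals mark its 3 CCAAT boxes. Fam187b, at chr7:30973544-30973843 on the plus strand, had the smallest p of those lower after transplantation, and its promoter holds no CCAAT box, so that it is all in lower case.
Hdlbp: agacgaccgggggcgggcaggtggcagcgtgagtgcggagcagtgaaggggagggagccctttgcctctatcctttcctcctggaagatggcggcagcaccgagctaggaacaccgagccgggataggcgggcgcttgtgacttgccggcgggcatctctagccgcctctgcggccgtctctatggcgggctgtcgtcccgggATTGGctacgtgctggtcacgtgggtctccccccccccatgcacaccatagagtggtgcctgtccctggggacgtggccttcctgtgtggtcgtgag
Fiz1: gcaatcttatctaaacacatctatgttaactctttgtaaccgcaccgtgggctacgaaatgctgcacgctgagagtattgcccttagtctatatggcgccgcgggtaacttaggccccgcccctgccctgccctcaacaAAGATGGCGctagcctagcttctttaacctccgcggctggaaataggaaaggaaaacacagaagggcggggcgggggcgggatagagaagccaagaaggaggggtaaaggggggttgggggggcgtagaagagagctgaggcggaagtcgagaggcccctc
Asxl2: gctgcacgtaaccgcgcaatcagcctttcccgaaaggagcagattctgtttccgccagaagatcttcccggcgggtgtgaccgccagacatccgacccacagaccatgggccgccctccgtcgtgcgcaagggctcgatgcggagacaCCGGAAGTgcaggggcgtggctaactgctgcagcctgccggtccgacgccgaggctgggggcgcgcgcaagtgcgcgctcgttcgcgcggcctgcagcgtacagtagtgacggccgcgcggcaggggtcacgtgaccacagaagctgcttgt
H2ac15: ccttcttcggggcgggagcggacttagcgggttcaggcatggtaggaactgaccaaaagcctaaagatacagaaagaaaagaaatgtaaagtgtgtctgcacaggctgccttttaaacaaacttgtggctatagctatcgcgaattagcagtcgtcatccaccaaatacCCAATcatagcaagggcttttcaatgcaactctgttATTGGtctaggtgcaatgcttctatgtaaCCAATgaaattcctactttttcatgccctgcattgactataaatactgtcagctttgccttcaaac
Fam187b: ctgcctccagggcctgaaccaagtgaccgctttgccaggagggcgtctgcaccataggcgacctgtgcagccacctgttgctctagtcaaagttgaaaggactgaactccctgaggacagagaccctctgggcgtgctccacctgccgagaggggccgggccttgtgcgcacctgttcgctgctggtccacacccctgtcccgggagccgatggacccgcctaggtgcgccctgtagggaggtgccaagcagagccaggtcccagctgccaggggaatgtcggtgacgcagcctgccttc

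Libraries differed in how many peaks were called, and 1 library decided which regions became members. The lists held between 5711 (old pre 4) and 32557 (young post 1) peaks, with a median of 27825.5. The 3 shortest were those of old pre 4, young pre 4 with 9636 peaks and old post 4 with 14030 peaks. Of 1973 regions at gene ends that were called in 15 libraries, 1961 were missed by old pre 4 alone and 12 by young pre 4 alone. Without the 3 shortest lists, 7201 regions met the rule. The members took up 9.93% of the peaks of young post 1 and 56.3% of those of old pre 4. The files give no read counts, so the number of peaks is the only measure of depth here. Among the 14 members with the summit in the last 50 bp inside the limit of 1 kb, the median percentile of peak area was 62.9, and among the 11 regions in the next 50 bp outside it, it was 71.5. It was 81.5 in the 44 members whose widest peak was within 50 bp of the width limit, and 88.4 in the 26 regions that passed that limit by less than 50 bp. These percentiles rank the summed area of a region's peaks, the authors' own score for each peak, among the 5262 regions called in all 16 libraries, within each library, from 0 for the smallest to 100 for the largest.

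Most members sat at gene starts, with the summit just before the start. Of the 3113 members, 2623 lay within 1 kb of an annotated start and 40 were classed by the other end of a gene, 3 of them with an annotated start of another gene within 1 kb. For 450 members the strand of the gene was not in the tables used, so the kind of end is unknown. In the 2575 members with a RefSeq promoter, the summit lay a median of 63 bp before the start (quartiles -127 and 2.25 bp), and 73.5% of summits lay before it. The summit was within 100 bp of the start in 57.8% of them and within 250 bp in 85.9%. The summit of a typical member hardly moved between libraries, but some moved far. The SD of a member's summit over libraries had a median of 22.3 bp, an upper quartile of 58.8 bp and a maximum of 579 bp. The median distance of a member's summit in 1 library from the median of the others was 1 to 11 bp by library, with a median of 2 bp over libraries. For distal regions it was 1 to 15 bp, with a median of 3 bp.

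**Figure D1:**
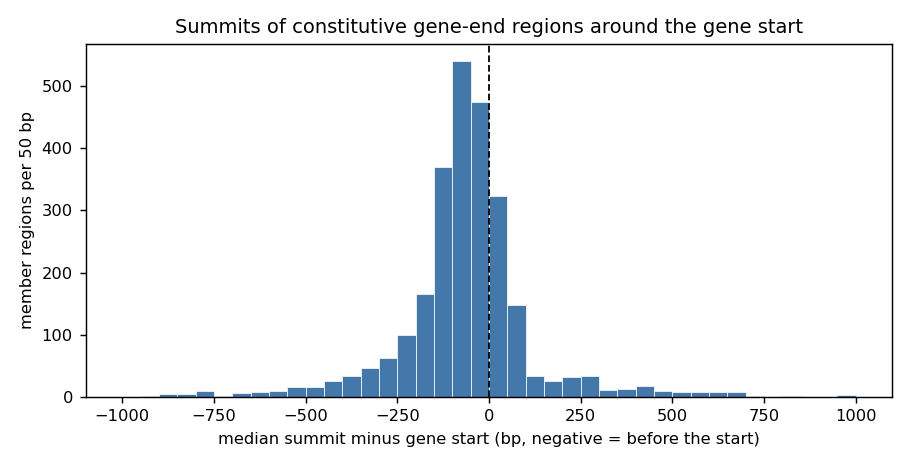
Number of constitutive gene-end regions (y axis, per 50 bp) by the distance of their median summit from the gene start (x axis, bp, negative before the start), for the 2575 members with a RefSeq promoter. The highest bar, 541 members, is at 100 to 50 bp before the start, and 474 members lie in the last 50 bp before it.

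Many members served more than 1 gene. A total of 439 members lay near the starts of 2 genes and 7 near the starts of 3, and in 288 members the starts pointed away from each other, as at a shared bidirectional promoter. Members at such divergent pairs had a median area percentile of 55.9 and a median width of 1375 bp, against 46.0 and 1234 bp in the 2335 other members at starts. An example is the region of Mrpl41, a protein of the mitochondrial ribosome, and Pnpla7, a lysophospholipase, at chr2:24974364-24976837, with a median percentile of 95.6 and a range of 93.4 to 98.2 over the 16 libraries. Psmb9, a subunit of the immunoproteasome, and Tap1, which carries peptides into the endoplasmic reticulum for antigen presentation, shared a region at chr17:34186371-34188491 with a median percentile of 76.2 (range 68.3 to 83.0). No test was made between these classes.

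The 40 members at other ends of genes had values close to those of the rest, with a median percentile of 46.1, against 47.1 at gene starts, and a median width of 1231 bp, against 1249 bp. Those of Ctdsp1, a phosphatase that acts on the tail of RNA polymerase II, and Smarcd3, a BAF remodelling subunit, stood at median percentiles of 90.5 and 81.5. The region at the other end of Ltb, which encodes lymphotoxin beta, had a median percentile of 59.6 but ranged from 5.77 to 82.2 over the libraries (SD 24.9).

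Members had larger peak areas than distal constitutive regions. The median percentile of the members was above that of the distal regions in all 16 libraries, by 10.5 ± 3.91 percentage points of rank (SD, n = 16 libraries) and by at least 4.22 (old pre 2) and at most 19.2 (young pre 4). The mean gap was 3.34 points with peaks of area 400 or more only, 6.46 with gene ends within 500 bp and 7.02 with wide peaks kept. Median member widths were 522 to 1445 bp by library, against 492 to 1336 bp for distal regions. The gap between members and distal regions was 9.55 ± 4.47 points in the 8 old libraries and 11.5 ± 3.24 points in the 8 young ones (SD). It was 10.1 ± 3.20 points in the 8 post libraries and 11.0 ± 4.70 points in the 8 pre libraries, so that both differences were within the spread between libraries. The width of the strongest peak of a member had a median of 1254.5 ± 187 bp in post libraries and 1073 ± 314 bp in pre libraries, and of 1082 ± 284 bp in old and 1245.625 ± 239 bp in young libraries, again within the spread between libraries. These spreads do not use the pairing of post and pre libraries by donor. Within donors, post minus pre averaged 181 bp for width and -0.869 points for the gap. The post width was larger for old 3 and 4 and young 2, 3 and 4, and smaller for old 1 and 2 and young 1. The share of members with more than 1 peak was 4.22% ± 0.733 in post and 4.53% ± 1.67 in pre libraries, and 4.37% ± 0.774 in old and 4.39% ± 1.66 in young libraries. No p is given for these summaries over the members, since the members were chosen with results of these data known.

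The order of the members by peak area was much the same in every library, at any age or stage. Spearman's rho between libraries over the 3113 members had a median of 0.907 over the 120 pairs, with a range of 0.661 to 0.981. It was 0.917 in the median for the 24 pairs of 1 group and 0.903 for the 96 pairs of different groups. The lowest values involved old pre 4, whose pairs had a median of 0.738, and young pre 4, with 0.819. Without these 2 libraries the range was 0.812 to 0.981. These correlations are across regions, which are not independent replicates.

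The largest members lay within the top ranks of every library. Gsk3b, a kinase that phosphorylates glycogen synthase and beta-catenin, had the highest median percentile, 97.7, with a range of 96.1 to 99.5 over the 16 libraries (chr16:38087639-38090114, median width 2223 bp). Next was Kpnb1, or importin beta, which carries proteins into the nucleus, at 97.5 (range 96.3 to 99.5). Sp4 and Sp1, factors that bind GC boxes, stood at 96.6 and 96.3, and Hdlbp, an RNA-binding protein, at 96.4. Zbtb5, a zinc finger protein, had 96.4, Ankhd1, an ankyrin repeat protein, 96.3, and Fbrs, a partner of Polycomb group complexes, 96.3. Cep57, a centrosome protein, and Cic, a transcriptional repressor, both had 96.2. In the 16 libraries none of these 10 fell below a percentile of 91.7. Zbtb5, Hdlbp, Gsk3b, Ankhd1 and Kpnb1 were also the members that varied least, with SDs of 0.864 to 0.999 points. The widest member by median was that of Ddit4, a stress-induced inhibitor of mTORC1, with 2456.5 bp, followed by Plin3, a lipid droplet protein, with 2452.5 bp, Ankhd1 with 2442.5 bp, Ppm1k, a mitochondrial phosphatase, with 2349.5 bp, and Vamp8, a vesicle fusion protein, with 2348.5 bp.

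The lowest-ranked members included the narrowest ones. Pde7b, a cAMP phosphodiesterase, had the lowest median percentile, 0.219, and the narrowest region, with a median width of 358.5 bp. It was followed by Gnaz, a G protein alpha subunit, at 0.257, Blvra, or biliverdin reductase, at 0.523, Clu, a secreted chaperone, at 0.608, and Grhl1, an epithelial transcription factor, at 0.656. The remaining 5 of the lowest 10 (0610010F05Rik, Car13, Dda1, Aen and F11r) lay between 1.01 and 1.09. Each of these 10 was higher in some library, up to a percentile of 33.4 for Car13 and 31.7 for Grhl1. The most variable members were those of Rorb (SD 25.9), Lars2 (SD 25.5), Ltb, Amotl2, a protein of cell junctions (SD 24.0), and Sgpl1, or sphingosine-1-phosphate lyase (SD 22.9). Lars2, the mitochondrial leucyl-tRNA synthetase, had its member at the other end of the gene, 482 bp wide, with percentiles from 15.5 to 93.2.

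The share of genes with a member differed between gene lists. Over all 21627 protein-coding genes, 3774 (17.5%) had an end within 1 kb of a member. Of tRNA synthetase genes, 20 of 37 (54.1%) had one. The share was 26 of 54 (48.1%) for the core spliceosome, 35 of 75 (46.7%) for cytosolic ribosomal proteins, 14 of 30 (46.7%) for chaperonins and heat shock proteins and 17 of 39 (43.6%) for the proteasome. Mediator, which links transcription factors to RNA polymerase II, had 14 of 31 (45.2%), and DNA replication 20 of 47 (42.6%). Translation initiation factors had 16 of 43 (37.2%), mitochondrial ribosomal proteins 26 of 77 (33.8%), autophagy 11 of 33 (33.3%), the respiratory chain and ATP synthase 23 of 74 (31.1%), the nuclear pore 9 of 30 (30.0%), and RNA polymerase II and general factors 10 of 44 (22.7%). Regulators of DNA methylation and chromatin had 13 of 45 (28.9%). With members counted in, a region called in at least 1 library lay at 35 of 45 genes for these regulators. It lay at 28 of 33 for autophagy, the lowest share of the lists of basic cell machinery. For translation initiation factors it was 42 of 43, and for the core spliceosome 53 of 54. The lists were assembled with results of these data known, and no enrichment was tested.

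**Figure D2:**
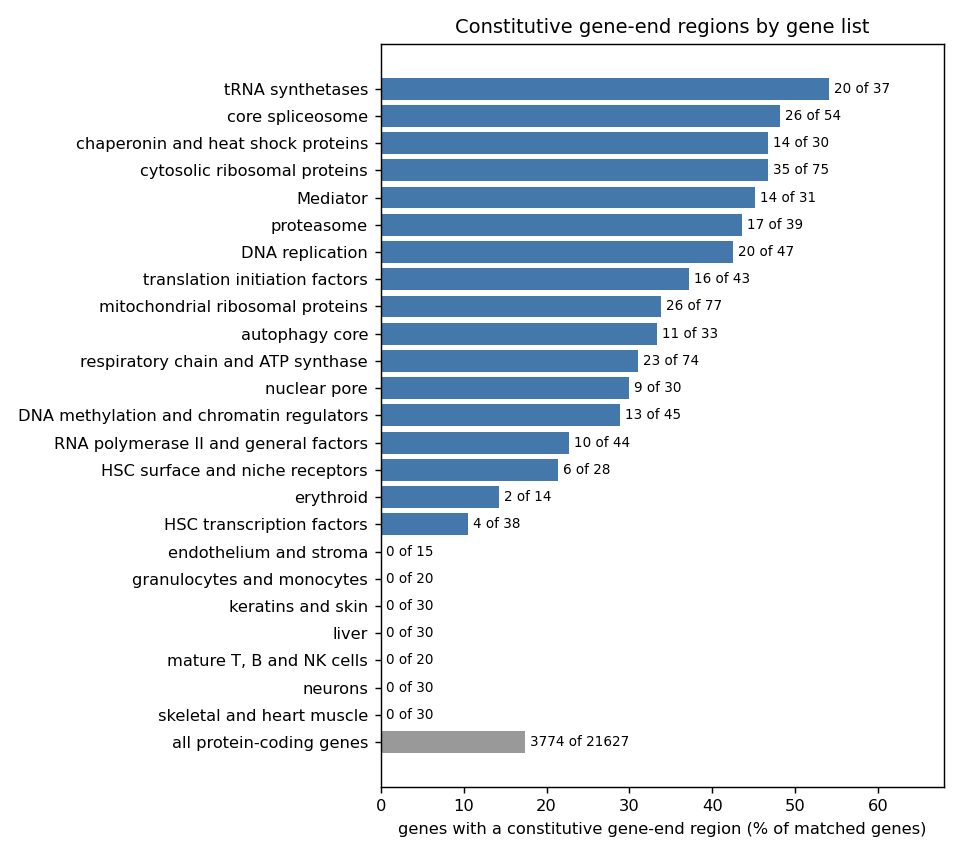
Share of the genes of each list with an end within 1 kb of a constitutive gene-end region (x axis, % of matched genes), with the counts beside each bar. The 13 lists of basic cell machinery lie between 22.7% and 54.1%, above the 17.5% of all protein-coding genes (grey), and 7 lists of other cell types lie at 0%.

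Within these lists the members were of very different size. Among ribosomal proteins, Rps29 (median percentile 84.7, range 81.7 to 90.3) and Rpl13a (79.4) had the largest regions and Rps26 (9.42, range 0.903 to 21.3) the smallest. Mcm7, a subunit of the replicative helicase, shared a region with Ap4m1 at 89.6, whereas Cdc6, which loads that helicase, stood at 4.78. Cct7, a subunit of the chaperonin that folds actin and tubulin, stood at 90.4, and Dnaja1, a co-chaperone, at 88.9. Of nuclear pore genes, Tpr had 83.9 and Nup98 82.7. Chaperones and the nuclear pore had the highest list medians, 76.96 and 75.9, against 46.8 over all members, and the proteasome, at 30.2, had the lowest of the lists of basic machinery.

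Some genes of the HSC and erythroid lists had a member, and no gene of the lists of mature white blood cells or other tissues did. Of the HSC surface and niche receptor genes, 6 of 28 (21.4%) had a member. Kit, the receptor for stem cell factor, stood at 83.5 (range 72.3 to 86.3) and Itga4, an integrin of HSC homing, at 81.3. Ifngr1, Itgb1, Ifnar1 and Tgfbr1, receptors for interferon gamma, matrix, type I interferon and TGF-beta, stood at 75.1, 53.2, 45.8 and 30.0. Of the HSC transcription factors, 4 of 38 (10.5%, against 17.5% of all protein-coding genes) had a member, among them Zfpm1, the GATA cofactor FOG-1, at 92.3, Runx1 at 35.7 and its partner Cbfb at 35.3. A further 9 of the HSC factors had a region called in all 16 libraries that was left out for its width. The erythroid list had 2 of 14 genes (14.3%) with a member, Tfrc, the transferrin receptor, and Epor, the erythropoietin receptor. No member lay at any of 20 genes of mature T, B and NK cells, 20 of granulocytes and monocytes, or 15 of endothelium and stroma, nor at any of the 30 genes each for neurons, liver, muscle and keratins. A region called in at least 1 library lay at 3, 4 and 8 of the genes of the first 3 of these lists.

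Member promoters were rich in CpG and in CCAAT boxes. For each of 17273 genes with a known strand, the promoter nearest to a region was taken. The ratio of observed to expected CpG had a median of 0.803 in the 2960 member promoters and 0.797 in 692 other promoters called in all 16 libraries. It was 0.763 in 5168 promoters whose region was called in 9 to 15 libraries, 0.647 in 1018 called in 1 to 8, and 0.217 in 7435 with no region. The GC contents of these sets had medians of 62.0%, 62.7%, 61.0%, 61.0% and 48.7%. By both measures the other promoters called in all 16 libraries were close to the members. The CCAAT box, CCAAT or its reverse complement, was found in 53.4% of member promoters, in 46.8% of 692 other promoters called in all 16 libraries, in 32.7% of those called in 9 to 15, in 29.4% of those called in 1 to 8, in 39.2% of those with no region and in 39.4% of all. Member promoters with 2 or more boxes made up 29.1%, against 9.33% of those called in 9 to 15 libraries. The same letters in backward order, TAACC, which have the same base composition, were found in 21.5% of member promoters, 22.5% of those called in 9 to 15 and 24.4% of all. Of the 3017 boxes in member promoters, 30.4% lay between 100 and 50 bp before the start, against 26.9% of the 3890 boxes in promoters with no region.

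Other motifs separated member promoters from promoters without a region more than from less widely called ones. Each was searched as an exact string on both strands, and none contains another. The GC box, GGGCGG, was in 74.3% of member promoters, 64.6% of those called in 9 to 15 libraries and 47.6% of all. The ETS core, CCGGAAGT, was in 9.83%, 9.21% and 5.41% of these sets, the YY1 motif, AAGATGGCG, in 4.39%, 3.39% and 2.01%, and the NRF1 motif, GCGCATGCG, in 3.99%, 4.41% and 2.45%. The cAMP response element, TGACGTCA, was in 3.99%, 3.56% and 2.37%, the E-box, CACGTG, in 9.83%, 11.8% and 7.99%, the TCTCGCGA element in 3.34%, 2.09% and 1.54%, and the ZNF143 core, ACTACAATT, in 1.35%, 0.580% and 0.550%. The TATA box, TATAAA, was scarcer in member promoters, at 4.19%, against 7.41% of those called in 9 to 15 libraries, 13.3% of all and 22.3% of those with no region. The RUNX, GATA and AP-1 motifs were no more frequent in member promoters than in all promoters. RUNX, TGTGGTT, was in 3.85% of member promoters, 3.62% of those called in 9 to 15 libraries and 4.85% of all. The GATA motif, AGATAAG, was in 1.25%, 1.90% and 2.63% of these sets, and AP-1, TGACTCA, in 2.26%, 3.39% and 4.59%. In the 692 other promoters called in all 16 libraries, the GC box was in 72.1%, the ETS core in 7.95% and the YY1 motif in 1.88%. The NRF1 motif was in 3.32% of them, the cAMP response element in 3.61% and the E-box in 8.82%. The TCTCGCGA element was in 3.76%, the ZNF143 core in 1.01% and the TATA box in 7.37%. RUNX, GATA and AP-1 motifs were in 2.02%, 1.59% and 3.47%. A match is only a match of letters, and binding was not measured.

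The CCAAT share changed most between regions called in 15 and in 16 libraries. It was 27.4% in promoters called in 13 libraries, 33.5% in 14, 37.5% in 15 and 52.6% in 16, while the share with the backward letters was 21.2%, 23.6%, 22.8% and 21.2%. The GC box went the same way less steeply, with 67.9% at 15 and 74.1% at 16 libraries. Nearly all regions called in 15 libraries were missing from old pre 4, the shortest list, so this step separates regions that passed the caller in that list from those that did not.

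**Figure D3:**
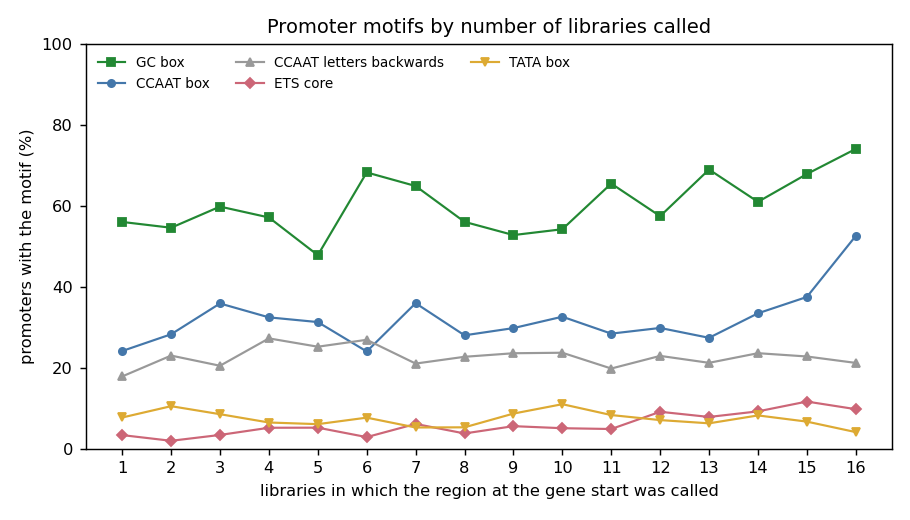
Share of promoters with each motif (y axis, %) by the number of libraries in which the region at the gene start was called (x axis, 1 to 16; regions with a wide peak left out). The CCAAT box lies between 24.0% and 37.5% up to 15 libraries and at 52.6% at 16, and the backward letters lie between 17.9% and 27.3% throughout.

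Among the members themselves, CCAAT boxes were more frequent at peaks of higher significance, with less difference by area and the opposite order by width. Member promoters were ranked by the highest -log10 q of a peak in their region in a library. The share with a CCAAT box then had a median over libraries of 38.2% in the lowest quintile and 69.6% in the highest. It was higher in the highest quintile in all 16 libraries, by 15.6 to 38.2 percentage points. Ranked by summed area, the difference between these quintiles was -4.39 to 22.0 points, with a median of 2.23. Ranked by the width of the strongest peak, the one of largest area, it was negative in all 16 libraries, -11.0 to -3.65 points. The backward letters differed by -3.77 to 1.48 points between the quintiles of -log10 q. The GC box differed by -1.31 to 20.2 points, and was more frequent in the highest quintile in 13 libraries. The ETS core was less frequent in the highest quintile in all 16 libraries, by a median of 5.44 points (7.60% against 12.9%, medians over libraries). Median promoter GC was 61.7% in the highest quintile and 63.0% in the lowest, as medians over libraries. The 16 libraries share their promoters and are no independent repeats of this description.

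**Figure D4:**
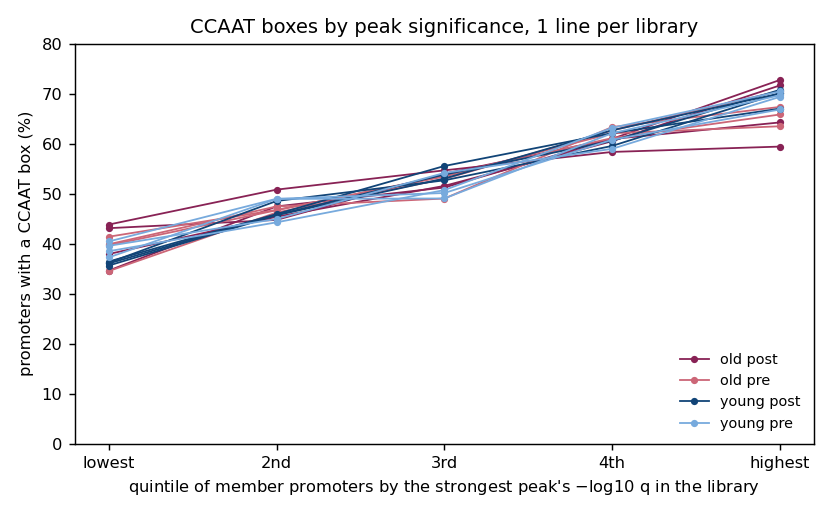
Share of the 2960 member promoters with a CCAAT box (y axis, %) by quintile of the highest -log10 q of a peak in the region (x axis, where that peak is called the strongest), with 1 line for each of the 16 libraries, coloured by group. All lines lie between 34.5% and 43.8% in the lowest quintile and between 59.5% and 72.8% in the highest.

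Few members differed between old and young HSCs before transplantation. The rank of each region by summed peak area within a library was turned into a normal score. A unit is thus 1 SD of the normal scores of a library. Near either end of the ranking these scores stretch small steps of rank. The scores were fitted with limma over all 5262 regions, with the donor as a block and Benjamini-Hochberg adjustment at 0.05. Of the members, 15 (0.482%) differed in pre libraries, 10 higher and 5 lower in old HSCs. Over all regions tested, 1.41% differed, 1.25% higher and 0.152% lower, and among the distal regions 54 (3.73%) did. The members called higher had a median percentile of 12.2 and those called lower 29.6, against 46.8 over all members. Since a member had to be called in every library, regions lost altogether in 1 group could not be among them.

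The 10 members higher in old pre HSCs had a median percentile of 12.2 and a median width of 833 bp. Not all were small, and Rorb, Fam187b and Jak3 stood well above that percentile in old pre libraries. Clu had percentiles of 4.40, 10.7, 10.3 and 2.94 in old pre libraries, against 0.561, 0.143, 0.257 and 0.656 in young pre libraries. The groups did not overlap, and the difference was 1.17 ± 0.17 score units (SE, limma adjusted p = 0.0022). After transplantation the Clu region had 1.99, 0.466, 1.05 and 0.846 in old HSCs, against 0.238, 0.200, 0.181 and 0.162 in young HSCs. All the Clu values in young libraries lay near the bottom of the ranking, where the scores stretch small steps of rank. The Clu region lies at chr14:65968306-65969167, with a median width of 530 bp. Clu encodes clusterin, a secreted chaperone.

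Rorb, an orphan nuclear receptor, had percentiles of 66.2, 77.6, 60.5 and 20.7 in old pre libraries, against 13.5, 15.99, 0.637 and 0.0285 in young pre libraries, a difference of 2.17 ± 0.46 units (adjusted p = 0.027). In post libraries it had 7.54, 15.9, 40.3 and 16.6 in old HSCs, against 0.181, 0.0665, 0.0665 and 0.0855 in young HSCs. The age groups did not overlap at either stage, though old pre 4 was far below the other old pre libraries. Several young pre values and all young post values of Rorb lay near the bottom of the ranking, where the scores stretch small steps of rank. Its region lies at chr19:19109988-19112113, and it was the most variable member of all.

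Fam187b, whose region at chr7:30973134-30974497 also lies at an end of Lsr, a lipoprotein receptor gene, had 58.1, 59.3, 60.6 and 46.9 in old pre libraries, against 22.5, 25.8, 22.7 and 29.0 in young pre libraries (0.83 ± 0.15 units, adjusted p = 0.0095). Jak3, the kinase of the common gamma chain cytokine receptors, had 27.5, 59.2, 39.8 and 50.2, against 17.1, 14.2, 20.4 and 20.7 (0.76 ± 0.16, adjusted p = 0.024). Rasl11a, a small GTPase, averaged 18.1 ± 5.94 in old pre and 3.79 ± 2.03 in young pre libraries (SD, n = 4 each; 0.89 ± 0.16, adjusted p = 0.0095). The old and young pre libraries did not overlap in any of these 3 regions.

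The others called higher were Mypop, a Myb-related repressor (5.99 ± 1.66 in old pre and 0.945 ± 0.652 in young pre), Ccdc117 (28.2 ± 7.52 and 11.0 ± 1.76), Tbx3, a T-box factor (10.2 ± 1.88 and 2.00 ± 0.333), Aqp1, a water channel (5.05 ± 0.454 and 1.48 ± 0.692), and Map3k5, a stress-activated kinase (22.5 ± 6.28 and 7.68 ± 2.31). Their limma adjusted p lay between 0.023 and 0.040. Aqp1 lost its call under 20 of 29 other settings, Map3k5 under 17, Rorb under 11, Mypop under 7 and Jak3 under 5, and Tbx3 lost it under 10 and Ccdc117 under 8 of 27, while Fam187b and Rasl11a each lost it under 2 of 29 and Clu under 2 of 27.

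Eif4a3, Aspm, Uhrf1, U2surp and Hsd17b11 were the 5 members lower in old pre HSCs. Eif4a3, the helicase of the exon junction complex, had percentiles of 7.78, 13.2, 15.4 and 13.4 in old pre libraries, against 34.6, 30.9, 30.9 and 42.3 in young pre libraries (-0.77 ± 0.15 units, adjusted p = 0.016). Aspm, a spindle pole protein of dividing cells, had 3.53, 9.82, 1.62 and 10.2, against 20.7, 15.6, 30.2 and 38.2 (-0.97 ± 0.20, adjusted p = 0.023). Uhrf1, which recruits the maintenance DNA methyltransferase to newly copied DNA, had 48.1, 52.8, 44.7 and 34.7, against 61.2, 65.3, 69.7 and 63.9 (-0.51 ± 0.11, adjusted p = 0.027). Every old pre library lay below every young pre library in these 3 regions. Regions called on these values tend to be separated, here as among the members called higher, so this is no further result. U2surp, a protein of the U2 snRNP, averaged 18.7 ± 2.85 in old pre and 35.2 ± 4.23 in young pre libraries (adjusted p = 0.034), and Hsd17b11, a lipid droplet dehydrogenase, 3.14 ± 2.00 and 11.6 ± 1.73 (adjusted p = 0.045). The call was lost under 19 of 29 other settings each for U2surp and Hsd17b11, 11 for Uhrf1, 10 for Aspm, which turned round under 1 more, and 3 for Eif4a3.

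The number and direction of these age calls changed when single libraries were left out or the transposition day was fitted. Without old pre 4, 46 members were called, 12 higher and 34 lower, out of 119 called over all 5262 regions. Without old pre 1 or without young pre 3, 5 members were called, out of 34 and 42 regions in turn. With the transposition day in the fit, 471 members were called (303 higher, 168 lower), out of 851 called over all 5262 regions. Within the days that held both ages 158 members were called (88 higher, 70 lower), out of 317 regions. In both these fits the age difference before transplantation came from old pre 3 and 4 against young pre 1 to 3, which shared a day. The part of the day therefore cannot be told from that of the libraries that dropped out. With the area per base of peak in place of the area none was called, and by that measure Jak3 and Aspm had the opposite sign.

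After transplantation no member differed by age at this threshold, and 0.0% of all regions tested did. At an unadjusted limma p under 0.05 there were 131 members (4.21%), against 5.53% of the distal regions. The smallest p higher in old post HSCs, none past the threshold, were those of Rorb (2.20 ± 0.46 units, adjusted p = 0.65), Mlst8, a subunit of the mTOR complexes (38.1 ± 7.25 in old post and 21.9 ± 2.35 in young post), and Psmd12, a proteasome subunit (13.03 ± 5.44 and 5.15 ± 1.47). Those lower were Adipor1, an adiponectin receptor (9.88 ± 6.75 and 24.5 ± 2.73), Mgat2, a Golgi enzyme of N-glycans (37.3 ± 12.0 and 58.2 ± 3.42), and 4933407O12Rik (42.5 ± 4.21 and 61.3 ± 5.03). Whether a member's age difference changed with transplantation was tested as the interaction, and none of the members passed, against 0.019% of all regions, the 1 region being lower and distal. At an unadjusted limma p under 0.05 there were 184 members (5.91%), against 10.5% of the distal regions. The smallest limma adjusted p among those named was 0.20, for U2surp, Rfc3, Ccdc117, Rasl11a and Adipor1.

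Over both stages, 5 members (0.161%) differed by age, against 0.475% of all regions, 0.437% higher and 0.038% lower in old HSCs. Higher were Clu (0.86 ± 0.13 units, adjusted p = 0.0062), Rorb (2.18 ± 0.35, adjusted p = 0.011), Fam187b (0.65 ± 0.11, adjusted p = 0.015) and Mypop (0.64 ± 0.13, adjusted p = 0.041), and lower was Eif4a3 (-0.58 ± 0.11, adjusted p = 0.028). Over both stages the call was lost under 19 of 29 other settings for Mypop, 12 of 29 for Eif4a3, 4 of 29 for Fam187b, 3 of 27 for Clu and 2 of 29 for Rorb. For Clu the lowest old library, at 0.466, lay below the highest young one, at 0.656, so that the ages overlapped over both stages. They also overlapped for Rorb and Fam187b, whose values in some old post libraries lay below those in some young pre libraries. Creg1 and Med1 were the next lowest, with adjusted p of 0.09 and 0.15, and did not pass. Without old pre 4, 10 members were called, out of 47 called over all 5262 regions. Without old pre 1 or 3, old post 2, young post 1 or 3, or young pre 1, 3 members were called, out of 15 to 20 regions.

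**Figure D5:**
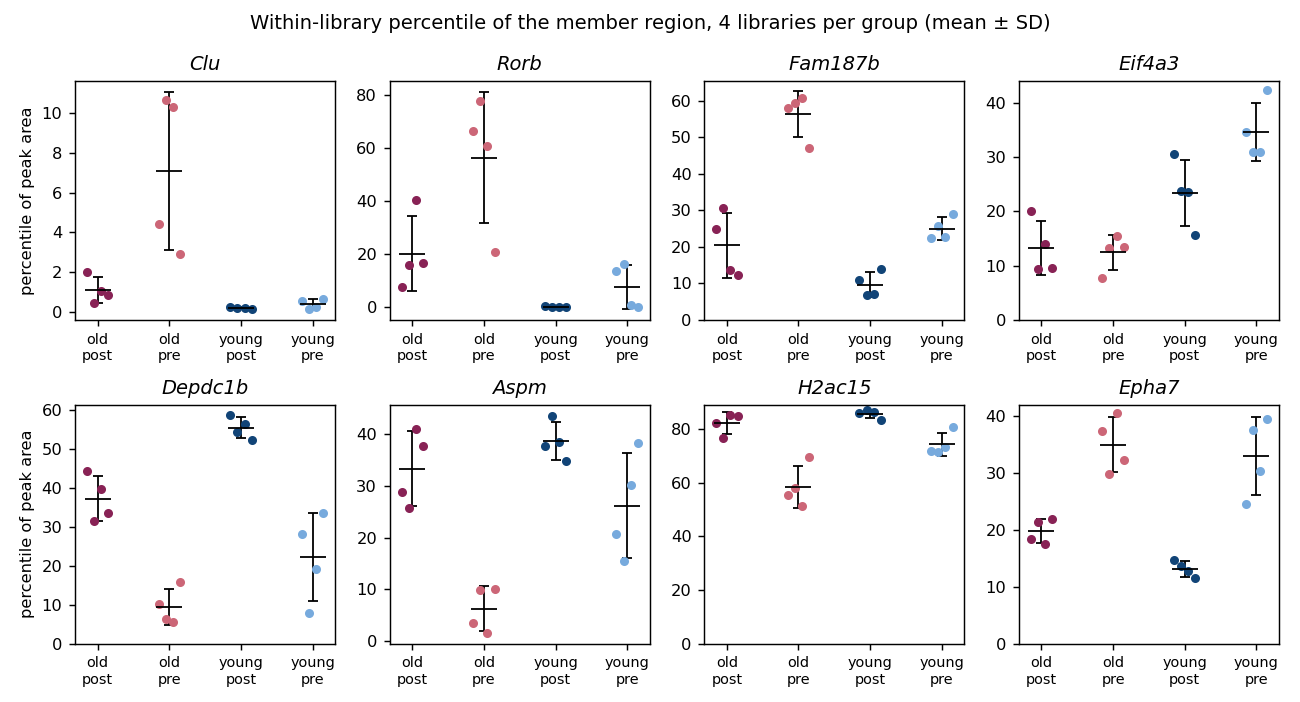
Within-library percentile of summed peak area (y axis, 0 to 100, scales differ) of 8 member regions in the 4 libraries of each group, old left of young and post left of pre. Points are libraries and bars are mean ± SD; Clu, Rorb and Fam187b lie highest in old pre HSCs, and Depdc1b, Aspm and H2ac15 lie higher in post than in pre HSCs.

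Members also differed by transplantation. In post against pre libraries of both ages, 77 members (2.47%) were called, 40 higher and 37 lower after transplantation, against 3.82% of all regions, 1.96% higher and 1.86% lower, and 106 (7.33%) of the distal regions. The median difference over the members was -0.01 units, against 0.00088 over all regions tested. Stage and transposition day cannot be told apart, and any recipient or helper HSCs would appear only in post libraries. The number of peaks, 14030 to 32557 in post and 5711 to 30541 in pre libraries, moved with stage too, and its part in the result was not tested beyond the settings given here.

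Depdc1b and H2ac15 had the smallest p among the members higher after transplantation. Depdc1b, a protein of the cell cycle, had percentiles of 44.3, 31.6, 39.6 and 33.6 in old post libraries, against 10.1, 6.47, 5.63 and 15.8 in old pre libraries. In young HSCs it had 58.6, 54.3, 56.3 and 52.4 after transplantation, against 28.2, 7.86, 19.2 and 33.6 before it. It was higher after transplantation in all 8 donors, by 0.99 ± 0.12 units (adjusted p = 0.00071), and the groups of 1 age did not overlap. Its region lies at chr13:108315273-108317140.

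H2ac15, a replication-dependent histone H2A gene that shares its region at chr13:21752991-21755016 with the H2B gene H2bc15, had 82.2, 76.6, 85.1 and 84.8 in old post libraries, against 55.3, 58.1, 51.1 and 69.4 in old pre libraries. In young HSCs it had 86.0, 86.9, 86.1 and 83.3 after transplantation, against 71.8, 71.5, 73.2 and 80.5 before it (0.56 ± 0.08, adjusted p = 0.0016). Its promoter, shown above, holds 3 CCAAT boxes. H2ac12, shared with H2bc12, averaged 53.3 ± 8.63 in old post and 28.0 ± 12.9 in old pre libraries, and 67.8 ± 4.36 in young post and 36.2 ± 7.04 in young pre libraries (0.77 ± 0.13, adjusted p = 0.0038). With the area per base in place of the area, H2ac12 had the opposite sign. Histone genes are near-identical copies, so how reads were shared among them is uncertain.

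Aspm, lower in old than in young HSCs before transplantation, had 28.9, 25.8, 40.9 and 37.7 in old post libraries, against 3.53, 9.82, 1.62 and 10.2 in old pre libraries. In young HSCs it had 37.6, 43.5, 38.5 and 34.8, against 20.7, 15.6, 30.2 and 38.2 (0.78 ± 0.13 over both ages, adjusted p = 0.0040). The young groups overlapped and the old did not. Uhrf1 was higher after transplantation as well (0.35 ± 0.07, adjusted p = 0.014), with means of 66.4 ± 3.17 in old post and 45.1 ± 7.66 in old pre libraries, and of 70.1 ± 2.29 in young post and 65.0 ± 3.53 in young pre libraries. Age before transplantation and stage share the pre libraries, so these results are not independent of each other.

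The other named members higher after transplantation were Creg1, a lysosomal glycoprotein (67.2 ± 5.04 in old post and 45.9 ± 5.96 in old pre, 78.4 ± 4.07 in young post and 63.1 ± 6.01 in young pre), Etv4, an ETS factor (31.6 ± 7.26 and 9.04 ± 4.25, 30.6 ± 3.78 and 8.78 ± 7.56), and Pstk, a kinase needed to make selenocysteine (21.3 ± 4.65 and 8.74 ± 4.62, 21.9 ± 1.79 and 9.89 ± 1.59). Zfp385a, Zswim9, Apbb3, Aqp1 and Cxxc1, a CpG-binding subunit of a histone methyltransferase, were higher by 0.43 to 0.63 units, with limma adjusted p of 0.0045 to 0.0077.

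Fam187b was the member with the smallest p among those lower after transplantation. Its percentiles were 25, 30.5, 13.8 and 12.2 in old post libraries, against 58.1, 59.3, 60.6 and 46.9 in old pre libraries. In young HSCs they were 10.8, 6.74, 7.25 and 13.9, against 22.5, 25.8, 22.7 and 29.0 (-0.83 ± 0.10, adjusted p = 0.00046). Neither age overlapped between stages. Epha7, an ephrin receptor, had 18.4, 21.4, 17.6 and 21.9 in old post, against 37.3, 29.8, 40.6 and 32.3 in old pre, and 14.7, 13.7, 12.7 and 11.5 in young post, against 24.6, 37.6, 30.3 and 39.5 in young pre (-0.57 ± 0.07, adjusted p = 0.0012). It did not overlap between stages in either age, but by area per base its sign was opposite, as it was for Tmem50b, Jak3 and Ip6k1.

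Rab39, a GTPase of vesicle traffic, averaged 11.5 ± 13.6 in old post and 27.4 ± 6.12 in old pre libraries, and 0.979 ± 0.583 in young post and 30.1 ± 10.2 in young pre libraries (-1.37 ± 0.19, adjusted p = 0.0016). The old libraries overlapped, with 30.2 in old post 1. Plcl1, an inositol phosphate binding protein, averaged 7.88 ± 3.10 in old post and 36.7 ± 10.9 in old pre, and 10.8 ± 5.86 in young post and 24.2 ± 13.4 in young pre libraries (-0.82 ± 0.14, adjusted p = 0.0052). F11r, a junction adhesion protein, averaged 0.679 ± 0.243 and 12.3 ± 9.52 in old post and old pre, and 0.983 ± 0.546 and 2.46 ± 1.76 in young post and young pre (-0.78 ± 0.14, adjusted p = 0.0069). Adipor1, Lrrc8a, a subunit of the volume-regulated anion channel, Zbtb9, Casc3, a partner of Eif4a3 in the exon junction complex, and Ip6k1, an inositol phosphate kinase, differed by -0.56 to -0.43 units, with limma adjusted p of 0.0069 to 0.014.

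In 4 lists of basic machinery 1 member passed the threshold for stage: 1 of 35 for cytosolic ribosomal proteins, 1 of 17 for the proteasome, 1 of 19 for tRNA synthetases and 1 of 26 for the core spliceosome, against 2.47% of all members. With so few members these counts cannot be told from that share. Rpsa, a protein of the small ribosomal subunit (-0.46 ± 0.09, adjusted p = 0.014), Psma3 of the proteasome (-0.30 ± 0.07, adjusted p = 0.032), Lars2 (-1.005 ± 0.22, adjusted p = 0.019) and Snrpc of the U1 snRNP (-0.64 ± 0.13, adjusted p = 0.014) were lower after transplantation, and none was higher. The list medians of the difference after against before transplantation lay between -0.09 (core spliceosome) and 0.03 units (tRNA synthetases). By age in pre libraries, Eif4a3 was the only member of these lists past the threshold, and Uhrf1, of the chromatin regulators, the only other listed one. None of the 4 members of the HSC transcription factor list, 6 of the HSC surface list, 2 of the erythroid list and 11 of the autophagy list passed in any comparison, numbers too small to read against the 0.161% to 2.47% of all members.

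The calls for transplantation depended on the measure and on single libraries. With no donor block 40 members were called (21 higher, 19 lower). By area per base of peak 9 were, by the -log10 q of the strongest peak 147, without the 3 shortest lists 172 (106 higher, 66 lower), and with the number of peaks as a covariate 435 (339 higher, 96 lower). The count was 34 without old post 4, 42 without old post 2, 49, 40, 38 and 50 without young post 1, 2, 3 and 4 in turn, and 50 without young pre 3. Across the 3113 members the difference after against before transplantation was related to median width (Spearman's rho 0.276, members not being independent), and the members called higher had a median width of 1335 bp, those called lower 1112 bp and all members 1244.5 bp. The part of peak width in these calls was not tested beyond this. Of the promoters in the table, CCAAT boxes were in 17 of 32 called higher, 15 of 27 called lower and 1396 of 2575 members.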

How the data were processed

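Each of 16 ATAC-seq libraries of flow-sorted HSCs had 1 deposited peak list. The submitters' processing notes name the mm10 build and Genrich, FastQC, MultiQC, Trim Galore, cutadapt, ChIPseeker and featureCounts, with no order. Aligner, software versions and caller settings were not given in the sources used here. In the deposited lists each peak carries the authors' score, its area, and the authors' -log10 q. The smallest area in any list was 200. Peaks on other sequences, 393 of 387029 (0.102%), were left out, and 0 columns were unmapped.

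Peaks were merged, areas summed per region and library, ranked among the 5262 regions called in all 16 libraries, and turned into normal scores. limma 3.58.1 in R 4.3.3 fitted the 4 groups with the donor as a random block (consensus correlation 0.164), since the design text ties both stages to 1 donor or pool. P-values were adjusted by Benjamini-Hochberg over 5262 regions at 0.05. Scripts ran in Python 3.11.15 with numpy 2.4.6, pandas 2.3.3, scipy 1.17.1 and matplotlib 3.10.9, and the fit was tested on simulated data. A young library pools 3 to 4 mice and an old one is 1 mouse. No read counts were used, so precision is limited by 4 libraries a group and by the number of peaks called.

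Gene ends and promoters came from RefSeq tables of GRCm38.p6. Of 24 gene lists with 916 entries, 914 matched. The named genes were the up to 12 members per direction with the smallest p past the threshold in each comparison (where fewer than 3 passed, the 3 with the smallest p), the 10 highest and 10 lowest in rank, the 5 widest, narrowest, most and least variable, and in each list the 2 highest and the lowest. Others were chosen after their values were seen. The members and lists were chosen with earlier results of these data known. Alternatives changed the measure, the filters, the block, the libraries, the covariates and the promoter GC content.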

Additional observations from a re-analysis of the deposited data

Results flagged for a closer look

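Within groups of 4 libraries, 1 library stood far from the other 3, measured by its gap to the nearest over the range of the group, in 10 cases. Together with the 3 differences below these make 13 flagged values from 188 groups tested. Chance alone sets 1 library so far apart in about 1 in 20 groups, a rate that does not cover the 3 differences. The median shift of member summits was 11 bp in young pre 2, above the other young pre libraries. Old pre 4 was low for Mypop, at a percentile of 3.51, and old pre 1 for Mgat2, at 43.3. Young pre 2 was high for Tbx3, at 2.50, and young pre 3 for Creg1, at 72.0. Among young post libraries, young post 1 was high for Rorb, at 0.181, and young post 3 was high for Zfp385a, at 85.1, and for F11r, at 1.796. Old post 3 was low for Zswim9, at 43.7, and high for Ip6k1, at 28.1.

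In 3 members every old donor moved one way with transplantation and every young donor the other way. The change after against before transplantation was higher in old than in young HSCs by 21.3 percentile points for U2surp, 19.8 for Rfc3, a subunit of the clamp loader of DNA replication, and 28.4 for Ccdc90b. The differences in percentile points were not tested. These 3 members had been named for the smallest interaction p in that direction, so their opposite movement is no separate result. On normal scores the limma interaction did not pass, with adjusted p of 0.20, 0.20 and 0.28.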

How the results depend on the processing

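Of the results for single genes under each alternative, 1359 kept direction and side of the threshold, 223 lost the call, 11 gained one and 11 turned round. By area per base of peak the difference was -0.28 for Jak3 and 0.22 for Aspm (old minus young, pre), -0.25 for Mlst8 and 0.65 for 4933407O12Rik (old minus young, post), 0.10 for Creg1 (both stages), and -0.28 for H2ac12, 0.10 for Epha7, 0.89 for Tmem50b, 0.44 for Jak3 and 0.062 for Ip6k1 (post minus pre). With the -log10 q, the interaction was 0.12 for Rasl11a. The cause was not tested.

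The 15 members that differed by age before transplantation became 0 by area per base, 2 with peaks of area 400 or more, 86 with the number of peaks as a covariate, 471 with the transposition day, 158 on the days that held both ages and 74 without the 3 shortest lists. Over all 5262 regions (2279 with area 400 or more) 74 were called in the main fit. These settings called 1, 11, 229, 851, 317 and 188 regions in the same order. Scored within bins of promoter GC there were 5, and 5 among the same promoters without the bins, an alternative chosen after seeing the data. Leaving out 1 library gave 5 to 46 members, out of 34 to 119 regions. After transplantation there was 1 with the -log10 q, out of 2 regions, and 1 with the number of peaks as a covariate, the only region called. There were 0 to 0 on leaving out a library. Over both stages the 5 became 8 with the -log10 q, 0 by area per base, 2 with area 400 or more, 43 with the number of peaks, 13 with the day, 0 on days with both ages and 59 without the 3 shortest lists, and 3 to 10 on leaving out a library. Over all regions the main fit called 25. These settings called 31, 0, 6, 137, 61, 19 and 145 in the same order, and 15 to 47 on leaving out a library. The 77 that differed by stage became 147 with the -log10 q, 9 by area per base, 19 with area 400 or more, 435 with the number of peaks and 172 without the 3 shortest lists, and 34 to 100 on leaving out a library. Over all regions the main fit called 201. These settings called 349, 31, 50, 756 and 382 in the same order, and 86 to 226 on leaving out a library. The interaction gave 0 to 1.

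Without the donor block, 40 members differed by stage. With a replicate block that paired old with young by number, which marks no shared animal, 26 differed by age before transplantation, 32 over both stages and 37 by stage. Over all regions 107 were called by stage without the donor block. With the replicate block 102, 109 and 100 regions were called in the same order.

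The rule gave 1451 members with a stricter limit on width, 1411 with area 400 or more, 5086 when 15 libraries sufficed and 7201 without the 3 shortest lists. The share of members with more than 1 peak, old minus young, was 0.0910 points without the 3 shortest lists and 0.358 with wide peaks kept (-0.538 to 0.498 on leaving out a library), and post minus pre it was 0.204 with area 400 or more (-0.698 to 0.239). The summit shift, old minus young, was -0.25 to 2.19 bp on leaving out a library, and post minus pre 0.25 bp with area 400 or more (-1.93 to 0.5). The gap between members and distal regions, post minus pre, was 1.13 points without the 3 shortest lists and 0.469 with area 400 or more (-2.55 to 0.138).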

Other observations

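Members named for replication-dependent histone genes, a set chosen after its values were seen, numbered 14, 11 on chromosome 13 and 3 on chromosome 3. After transplantation 5 were higher by the limma fit and 0 lower, against 1.96% of all regions and 1.28% of members called higher, and 12 of the 14 differences were above 0, with a median of 0.22 score units and a range of -0.04 to 0.77. Of the 13 with a promoter in the RefSeq table, 12 held a CCAAT box, against 53.4% of member promoters. The genes are near-identical copies, so how reads were shared among them is uncertain.

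Genes on the X chromosome had few members. Of 966 protein-coding X genes, 50 (5.18%) had an end at a member, against 13.8% on chromosome 14 and 21.8% on chromosome 19, the lowest and highest autosomes. A region called in any library lay at 34.8% of X genes, against 44.5% to 62.0% on autosomes. All donors were male and have 1 X chromosome, and the part of copy number in this was not tested.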
